A study of Homo sapiens with 6 samples.

Results

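Expression of 9 genes of HLA class I antigen presentation was followed in MOLT-3, an established human line of T-ALL, or T-cell acute lymphoblastic leukaemia. The genes were taken by their names in the deposited tables: the heavy chain genes HLA-B, HLA-C, HLA-E and HLA-F, the light chain gene B2M, the peptide transporter genes TAP1 and TAP2, the loading factor gene TAPBP, and NLRC5, a transactivator of class I genes. All 9 were found among 58735 genes of the table, and all 9 were among the 16926 genes with enough counts to be tested. Messenger RNA was sequenced from 3 libraries of cells given DMSO, the solvent, and 3 libraries of cells given compound E. This small molecule inhibits gamma-secretase, the protease that frees the intracellular domain of NOTCH receptors and so switches their signal on. All 6 libraries come from that cell line, a model without the other cells of a tissue. The study compared the treatments to find genes under NOTCH1 control that may bear on how T-ALL cells respond to chemotherapy. For compound E, dose and duration are not stated by the labels.

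Class I molecules show fragments of a cell's own proteins to CD8 T cells. Proteasomes cut the proteins, the TAP1-TAP2 transporter carries the peptides into the endoplasmic reticulum, and tapasin, encoded by TAPBP, holds an empty heavy chain with B2M at the transporter until a peptide is bound. NLRC5 binds no DNA by itself. It joins RFX, CREB and NF-Y factors assembled on a conserved promoter module of class I, B2M and transporter genes, beside sites for interferon regulatory factors and NF-kB. HLA-E and HLA-F also serve as ligands of receptors on natural killer cells, and low class I is known as a way by which tumour cells escape T cells.

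The libraries held 17316138 to 19845114 counts each. Compound E replicate 3 stood apart from the other replicates of its group, with a chi-square per gene of 2.68 and 2.77 against replicates 1 and 2. The other pairs of replicates had 1.66 to 1.89. Values without compound E replicate 3 are given for TAPBP, NLRC5, PSMB9, PSMB10, TAPBPL, CALR and UGGT1. For other genes, a call that moved without it is only counted among the alternative settings. Levels are given as CPM, a library's counts per fixed total after TMM scaling, and fold changes compare compound E with DMSO by edgeR's quasi-likelihood test. A gene was called where its p-value, adjusted by Benjamini-Hochberg over the 16926 tested genes, was under 0.05. Whether replicates were separate cultures is not in the labels, so p-values cover only the spread among these samples, which may be technical. The NOTCH target genes matched the labels: DTX1 went from 172 ± 6.86 to 7.06 ± 1.03 CPM, HES4 from 79.7 ± 5.14 to 2.67 ± 0.787 CPM and NOTCH3 from 302 ± 3.82 to 36.9 ± 1.85 CPM (SD, n = 3 per group), and all 3 were called lower. Of the 8 T-lineage markers, 8 had a mean over 1 CPM, with a summed level of 2116 to 2174 CPM with DMSO and 2949 to 3044 CPM with compound E. RAG1 rose from 546 to 1583 CPM and CD1A from 104 to 168 CPM, while 5 of the 8 were called lower. The 5 monocyte and dendritic cell markers summed to 0.867 to 1.21 CPM with DMSO and 0.766 to 0.956 CPM with compound E, and the 5 natural killer cell markers to 5.13 to 6.41 and 4.54 to 6.43 CPM. The 4 B cell markers, of which MS4A1 and PAX5 had 0 counts, summed to 13.6 to 14.9 and 13.4 to 14.7 CPM, nearly all from CD79A. The 4 fibroblast markers, of which COL1A2 and DCN had 0 counts, summed to 13.9 to 14.8 and 9.96 to 12.01 CPM. Of these, PDGFRB was called lower, from 2.80 to 1.47 CPM (adjusted p = 0.000575 by edgeR), and COL1A1 was not called, at 11.5 and 9.63 CPM. In bulk RNA, fewer cells of a type and less RNA per cell cannot be told apart.

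The promoters of these genes are shown as a description of their sequence, and no link to the changes with compound E was tested. Promoter sequences of 7 of the 9 genes, all but HLA-E and NLRC5, were found in the RefSeq table (GRCh38.p14). Each is written on the gene's own strand. Capitals mark matches, on either strand, to the core letters of 5 kinds of site: AANNGAAA for interferon regulatory factors, CCAAT for NF-Y, TGACG for the cyclic AMP response element, GGNNTTNCC for NF-kB and GTGGGAA for RBPJ, the DNA-binding partner of NOTCH.
HLA-B, chr6:31357225-31357361, minus strand: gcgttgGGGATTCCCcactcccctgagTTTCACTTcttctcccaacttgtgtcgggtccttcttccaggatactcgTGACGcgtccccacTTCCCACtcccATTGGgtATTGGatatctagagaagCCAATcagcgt
HLA-C, chr6:31272138-31272287, minus strand: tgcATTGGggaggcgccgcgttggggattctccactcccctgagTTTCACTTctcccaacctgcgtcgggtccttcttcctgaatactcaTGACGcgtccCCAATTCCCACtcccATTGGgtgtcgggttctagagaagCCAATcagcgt
HLA-F, chr6:29723272-29723387, plus strand: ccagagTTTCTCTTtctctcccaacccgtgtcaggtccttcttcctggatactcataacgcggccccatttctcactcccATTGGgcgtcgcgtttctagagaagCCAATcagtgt
B2M, chr15:44711369-44711478, plus strand: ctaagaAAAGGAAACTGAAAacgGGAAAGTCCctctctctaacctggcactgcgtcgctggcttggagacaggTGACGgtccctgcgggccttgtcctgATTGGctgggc
TAP1, chr6:32853761-32853910, minus strand: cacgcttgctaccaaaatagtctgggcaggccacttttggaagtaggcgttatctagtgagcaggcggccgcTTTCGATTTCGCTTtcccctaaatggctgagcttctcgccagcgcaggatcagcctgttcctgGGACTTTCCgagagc
TAP2, chr6:32838764-32838807, minus strand: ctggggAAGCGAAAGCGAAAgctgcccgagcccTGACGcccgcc
TAPBP, chr6:33314079-33314180, minus strand: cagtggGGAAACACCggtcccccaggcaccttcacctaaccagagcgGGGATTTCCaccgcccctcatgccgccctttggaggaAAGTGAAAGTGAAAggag

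In the 250 bases before the RefSeq start, the interferon regulatory factor core was present in 7 of the 7 genes, against 20.3% of the 35116 promoters in the table. It lay 155 to 148 bases before the start of HLA-B and 156 to 149 before that of HLA-F. In B2M, TAP1, TAP2 and TAPBP a pair of matches overlapped. The NF-Y core was found in 5 of the 7, all but TAP2 and TAPBP, against 32.0% of all promoters, and the match of TAP1, 249 to 245 bases before its start, lies outside the stretch shown. The cyclic AMP response element core was found in 4 (HLA-B, HLA-C, B2M and TAP2), against 21.2%, and the NF-kB core in 4 (HLA-B, B2M, TAP1 and TAPBP), against 14.98%. The RBPJ core was found in HLA-B, 92 to 86 bases before the start, and in HLA-C, 91 to 85 bases before it, where it overlaps an NF-Y match, and 5.43% of all promoters hold it. HLA-B was called lower with compound E and HLA-C was not called, as described next. A match of letters is a description of the sequence and shows no binding.

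**Figure D1:**
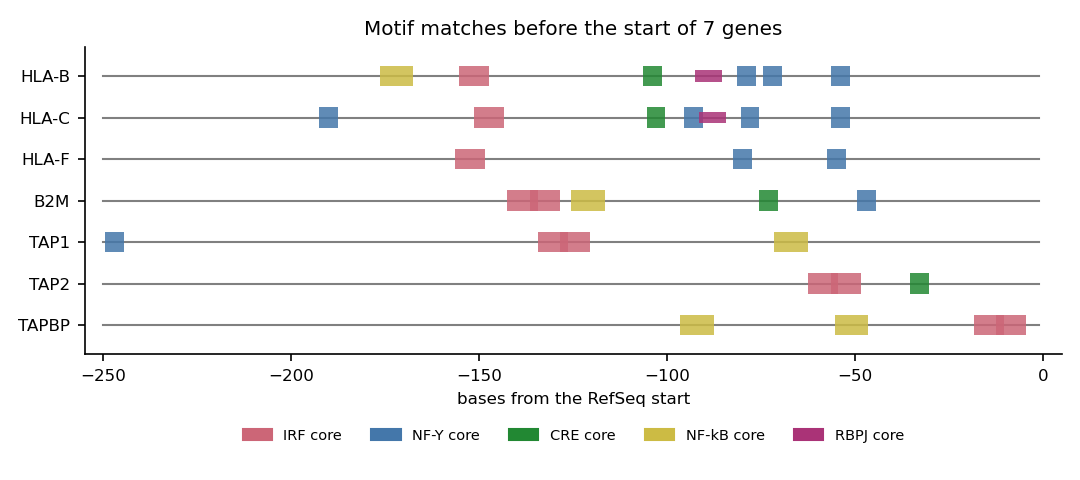
Each horizontal line is the 250 bases before the RefSeq start of a gene, with distance from the start in bases, and each block is a match to the core letters of a site, coloured by kind. Every line carries at least 1 block of the interferon regulatory factor core, and the RBPJ core appears in HLA-B and HLA-C.

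Among the heavy chains, which bind the peptide, HLA-B and HLA-E fell with compound E. HLA-B (ENSG00000234745, chromosome 6, 31269491 to 31357188, minus strand, GRCh38) had 76.6, 77.6 and 77.2 CPM in the DMSO libraries and 66.2, 65.4 and 61.8 CPM in the compound E libraries. All 3 compound E libraries lay below all 3 DMSO libraries. The mean went from 77.1 ± 0.499 to 64.5 ± 2.37 CPM (SD, n = 3), a log2 fold change of -0.26 ± 0.0413 (SE), or 1.196-fold lower, with an adjusted p of 2.51e-06 by edgeR. HLA-E (ENSG00000204592, chromosome 6, 30489467 to 30494205, plus strand), whose product presents leader peptides of other class I chains, had 336, 345 and 346 CPM with DMSO and 302, 305 and 309 CPM with compound E. Its groups did not overlap either. The log2 fold change of HLA-E was -0.16 ± 0.0269 (SE), 1.12-fold lower, with an adjusted p of 4.49e-06 by edgeR.

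HLA-C, the neighbour of HLA-B and a main ligand of killer cell immunoglobulin-like receptors, was not called. It (ENSG00000204525, chromosome 6, 31268749 to 31272130, minus strand) had 121, 113 and 119 CPM with DMSO and 117, 106 and 114 CPM with compound E. The groups overlapped, since 2 compound E libraries lay within the DMSO range. Its log2 fold change was -0.06 ± 0.0375 (SE, adjusted p = 0.201 by edgeR), and the 95% interval of the change ran from -9.13% to 0.964%. The log2 fold change was -0.02 without compound E replicate 2 and -0.09 without compound E replicate 1 or without DMSO replicate 2, and HLA-C was not called in any of these fits. HLA-F (ENSG00000204642, chromosome 6, 29722775 to 29738528, plus strand), a heavy chain found on the surface of activated lymphocytes, rested on few counts: 27, 32 and 29 with DMSO and 18, 18 and 20 with compound E. These are 1.40, 1.61 and 1.68 CPM against 0.985, 0.996 and 1.06 CPM, and the groups did not overlap. The log2 fold change was -0.62 ± 0.266 (SE), with an adjusted p of 0.0638 by edgeR that missed the threshold. With limma on log2(FPKM + 1) in place of edgeR, HLA-F passed it, with an adjusted p of 0.0307.

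Because these genes resemble each other, reads may have been split between them in ways the counts do not show. HLA-B and HLA-C share 35 bases of exon on the same strand, and of the 50-base stretches in their exons 2.72% and 5.38% also occur in another gene. For HLA-E and HLA-F this was 4.34% and 0.977%, and for TAPBP 4.17%. HLA-E shares 67 such stretches with HLA-G and 49 with HLA-H, and HLA-C shares 67 with HLA-H. The summed counts of the 4 heavy chains do not depend on a split among them. They can still depend on reads given to HLA-G, HLA-H or other genes, or left out for several matches, which was not tested. The sums were 535, 537 and 543 CPM with DMSO and 487, 478 and 486 CPM with compound E. The sum was thus lower in every compound E library, by 10.2% on average, from 538 ± 4.27 to 484 ± 4.69 CPM (SD, n = 3). HLA-E gave 63.6% of these counts with DMSO and 63.2% with compound E. On the opposite strand, 17.8% of the exon bases of HLA-B and 28.5% of those of HLA-F overlap other genes, and the labels do not state whether counting used the strand. The gene across from HLA-B, AL671883.2, had 0 counts in every library. Across from HLA-F lie AL645939.1 and RPL23AP1, with 0 counts in every library, and HLA-F-AS1, with 5 to 11 counts. Such low counts do not show how reads over shared bases were treated.

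B2M, the light chain that pairs with every class I heavy chain, moved the other way. B2M (ENSG00000166710, chromosome 15, 44711487 to 44718877, plus strand) had 670, 648 and 655 CPM with DMSO and 706, 743 and 710 CPM with compound E. Each compound E library lay above each DMSO library. The log2 fold change was 0.13 ± 0.0254 (SE), 1.09-fold higher, with an adjusted p of 7.38e-05 by edgeR. B2M shares no exon base and no 50-base stretch with another gene. The ratio of the summed heavy chains to B2M, both in FPKM, was 1.69, 1.75 and 1.75 with DMSO and 1.47, 1.37 and 1.45 with compound E. The ranges did not overlap, and the exact two-sided permutation p was 0.10, the smallest that 3 against 3 libraries can give, so that this design cannot reach 0.05.

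**Figure D2:**
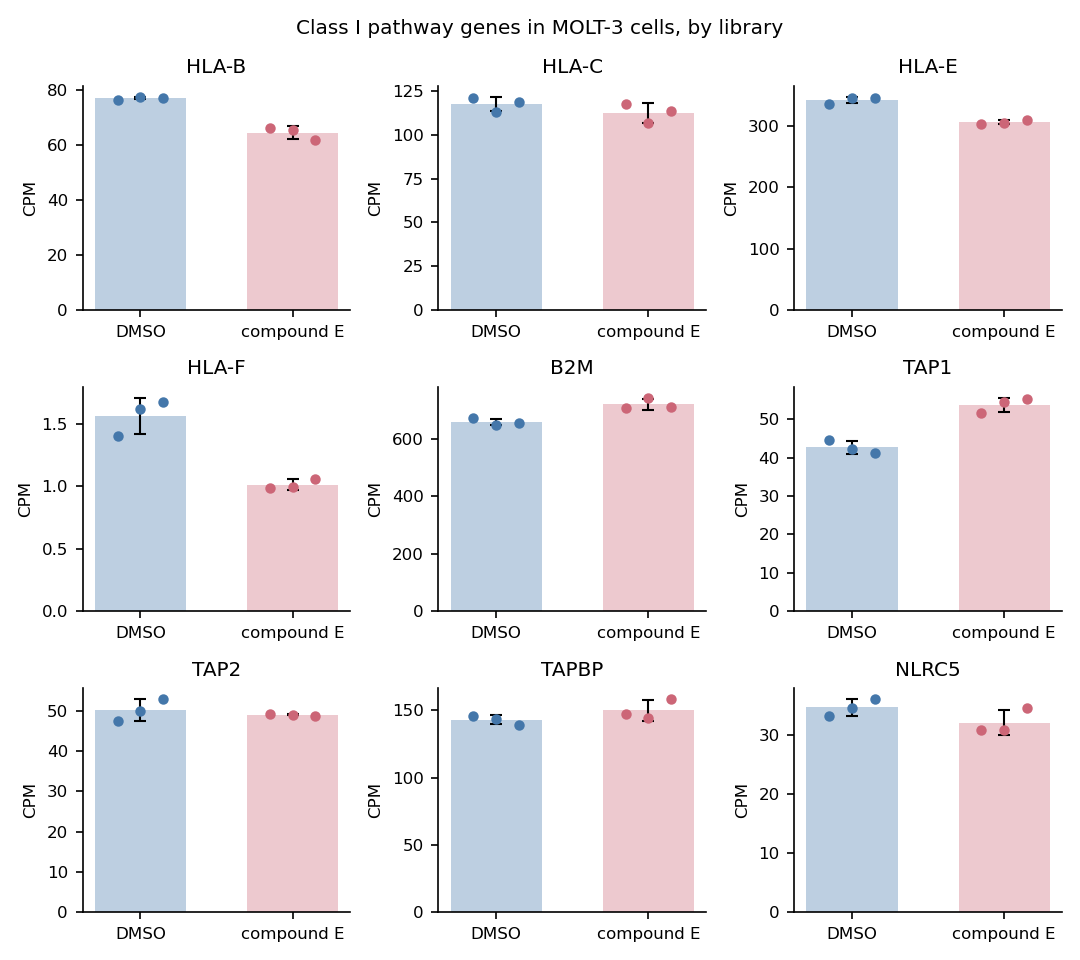
Expression of the 9 genes in CPM on axes that start at 0, with a point per library, bars for the mean of the 3 libraries of a group and error bars of 1 SD. HLA-B and HLA-E lie lower, and B2M and TAP1 higher, in all 3 compound E libraries, while TAP2 has overlapping groups near 50.1 and 48.9 CPM.

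The transporter genes, whose products work as a pair, did not move alike. TAP1 (ENSG00000168394, chromosome 6, 32845209 to 32853978, minus strand) had 44.6, 42.3 and 41.3 CPM with DMSO and 51.7, 54.4 and 55.1 CPM with compound E. No library of a group reached the range of the other. Its mean went from 42.7 ± 1.68 to 53.7 ± 1.81 CPM (SD, n = 3), a log2 fold change of 0.33 ± 0.0488 (SE), or 1.26-fold, with an adjusted p of 5.79e-07 by edgeR. TAP2 (ENSG00000204267, chromosome 6, 32821833 to 32838780, minus strand) had 47.3, 49.96 and 52.9 CPM with DMSO and 49.1, 49.0 and 48.8 CPM with compound E. All 3 compound E libraries fell within the DMSO range. The log2 fold change of TAP2 was -0.03 ± 0.0486 (SE, adjusted p = 0.658 by edgeR), with a 95% interval of the change from -8.60% to 4.77%. It was -0.07 without DMSO replicate 1 and 0.0098 without DMSO replicate 3, and was not called either way. The interval of TAP1, from 17.4% to 34.7%, lies above that of TAP2.

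Within each library, the ratio of TAP1 to TAP2 in FPKM was 1.25, 1.13 and 1.04 with DMSO and 1.40, 1.48 and 1.504 with compound E. The ratio was higher in every compound E library, with an exact two-sided permutation p of 0.10, again the smallest possible. PSMB9, an immunoproteasome subunit gene that shares a promoter region with TAP1 and is read from the other strand, had 50.04, 53.1 and 54.7 CPM with DMSO and 52.6, 53.5 and 49.0 CPM with compound E. It was not called (log2 fold change -0.03, adjusted p = 0.725 by edgeR), nor was it without compound E replicate 3, at 0.013, or without DMSO replicate 3, at 0.0036. The ratio of PSMB9 to TAP1 in FPKM went from 1.93 ± 0.161 to 1.51 ± 0.105 (SD, n = 3), without overlap and with an exact permutation p of 0.10. Over the 6 ratios computed, each adjusted p was 0.10. Of the exon bases of TAP1, 9.49% lie across from PSMB8-AS1, which had 82 to 132 counts per library and was not called (log2 fold change 0.20, adjusted p = 0.317 by edgeR). Of those of TAP2, 32.3% are also exons of AL669918.1, a same-strand gene with at most 1 count per library. How reads over such shared exons were counted is not stated. If they were left out, the level of TAP2 would be too low and its ratio to TAP1 would be affected, which was not tested.

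TAPBP and NLRC5 were not called. TAPBP (ENSG00000231925, chromosome 6, 33299694 to 33314387, minus strand) had 146, 144 and 139 CPM with DMSO and 147, 144 and 159 CPM with compound E. Replicate 3 of compound E stood highest and the other libraries lay close together. Its log2 fold change was 0.07 ± 0.0348 (SE, adjusted p = 0.114 by edgeR), with a 95% interval from -0.0515% to 10.2%. Without compound E replicate 3 it was 0.03, with an adjusted p of 0.562 by edgeR, and without compound E replicate 2 it passed the threshold, at 0.10 with an adjusted p of 0.0286. NLRC5 (ENSG00000140853, chromosome 16, 56989485 to 57083531, plus strand) had 33.4, 34.7 and 36.2 CPM with DMSO and 31.0, 31.0 and 34.6 CPM with compound E. Replicates 1 and 2 of compound E lay below all DMSO libraries and replicate 3 within their range. The log2 fold change of NLRC5 was -0.11 ± 0.0580 (SE, adjusted p = 0.144 by edgeR), with a 95% interval from -14.5% to 0.645%. Without compound E replicate 3 it passed the threshold, at -0.16 with an adjusted p of 0.0334.

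Of the 9 genes, B2M and TAP1 were called higher, against 18.9% of all tested genes, and HLA-B and HLA-E lower, against 19.4%. Together 44.4% of them were called, near the 38.3% of all tested genes. The groups did not overlap for 5 of the 9, HLA-F included, against 46.8% of all tested genes. The median log2 fold change of the 9 was -0.06, beside -0.0034 over all tested genes. Their share of calls was therefore near that of the transcriptome as a whole, and the called changes ran from 1.09-fold to 1.26-fold. The 4 calls kept their side of the threshold under all 17 other settings, with adjusted p-values of at most 0.0289.

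**Figure D3:**
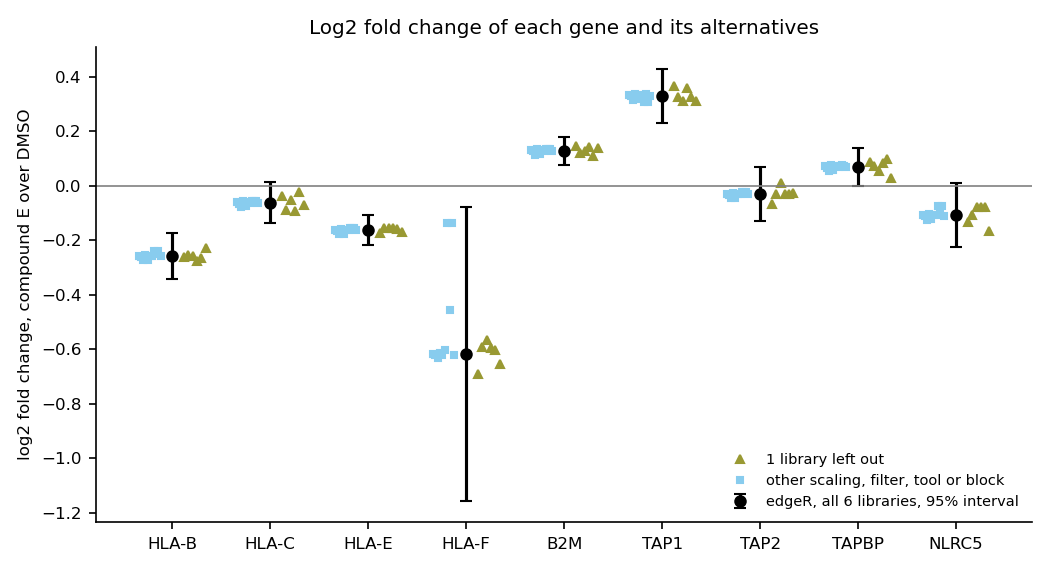
Log2 fold change of compound E over DMSO for each gene, with black points and 95% intervals from edgeR on 6 libraries, squares for other scalings, filters, tools or the replicate block, and triangles for fits with 1 library left out. HLA-B and HLA-E stay below 0 and B2M and TAP1 above 0 throughout, and the squares of HLA-F nearest 0 come from log2(FPKM + 1), where its level is small beside the pseudocount.

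Compared per length in the deposited FPKM, the genes spanned a wide range. In the DMSO libraries HLA-E led with a mean of 114 FPKM, followed by B2M at 107, HLA-C at 46.4, TAPBP at 28.02, HLA-B at 25.04, TAP1 at 8.81, TAP2 at 7.77, NLRC5 at 2.78 and HLA-F at 0.357 FPKM. With compound E, B2M stood at 118 FPKM and HLA-E at 102, so that their order was exchanged, and the rest kept theirs. No neighbours in either order had overlapping ranges. How well reads from this line's own HLA alleles matched the reference was not tested, so levels may not compare evenly between genes. By the mean FPKM over the 6 libraries, B2M and HLA-E lay above 98.4% and 98.3% of tested genes, NLRC5 above 40.6% and HLA-F above 7.42%.

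The order depended on the length assigned to a gene. The deposited length is that of all annotated exons merged, 6079 bases for B2M, whereas the longest of its 3 principal transcripts has 1705 bases. NLRC5 had 2 principal transcripts, and only the longest of a gene was used. A shorter one for B2M would raise its level and lower the ratio of heavy chains to B2M. The use of these lengths was an alternative added after the data were seen. With them, B2M led in both groups, at 382 FPKM with DMSO and 420 with compound E, ahead of HLA-E at 130 and 117. TAP2 then lay above TAP1, at 19.9 against 14.3 FPKM with DMSO and 19.5 against 18.1 with compound E. The ratio of heavy chains to B2M was then 0.671 ± 0.0119 with DMSO and 0.552 ± 0.0225 with compound E (SD, n = 3).

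**Figure D4:**
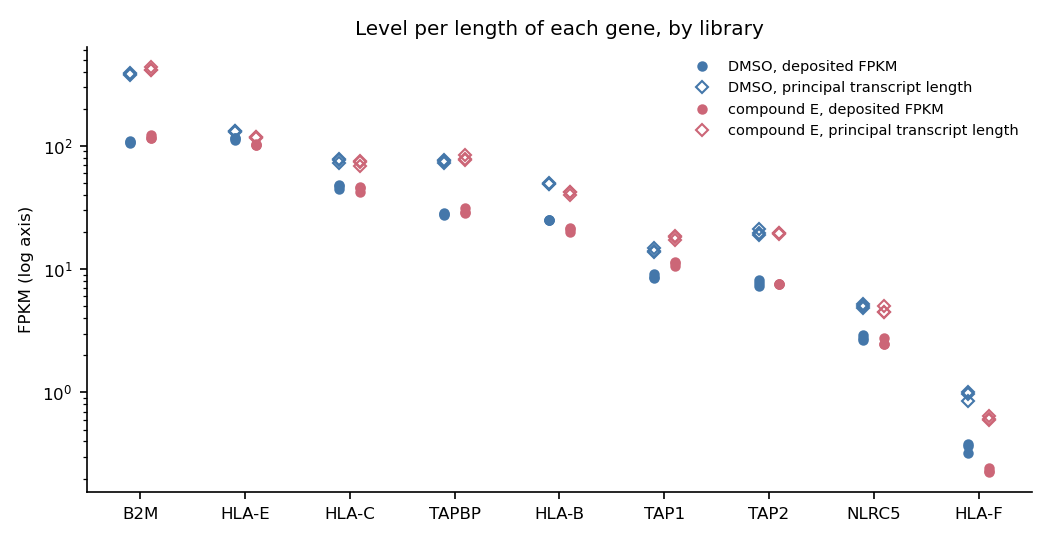
Level per length of each gene in every library on a log axis in FPKM. Filled circles are the deposited values and open diamonds the same counts over the length of the longest principal transcript. The diamonds of B2M, from 382 with DMSO to 420 with compound E on average, lie above those of every other gene, whereas its circles lie near those of HLA-E.

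The other genes of the pathway are given by list, and counts of calls are to be read against the 18.9% of all tested genes called higher and the 19.4% called lower. Among 10 genes that generate peptides, 3 were called higher and 2 lower, with a median log2 fold change of 0.07. The immunoproteasome subunits, which replace the constitutive ones under interferon, were not called with all 6 libraries: PSMB8 went from 86.7 ± 1.95 to 90.2 ± 3.05 CPM (adjusted p = 0.275 by edgeR) and PSMB10 from 28.6 ± 1.07 to 30.5 ± 2.92 CPM (log2 fold change 0.09, adjusted p = 0.288 by edgeR). Without compound E replicate 3, PSMB10 was called higher, at 0.16 with an adjusted p of 0.0436 by edgeR, and without compound E replicate 2 it was at 0.03 with an adjusted p of 0.798. Of the constitutive subunits, PSMB5 fell 1.198-fold, from 44.5 ± 0.862 to 37.1 ± 2.11 CPM, while PSMB6 rose 1.11-fold, from 96.7 ± 1.37 to 107 ± 2.51 CPM. PSMB7 was not called, at 149 ± 1.24 and 145 ± 3.74 CPM (adjusted p = 0.365 by edgeR). PSME3, the nuclear proteasome activator, rose 1.196-fold, from 214 ± 2.31 to 255 ± 5.55 CPM. Of the subunits of the interferon-inducible activator PA28, PSME2 rose (log2 fold change 0.11) and PSME1 fell (-0.10), the latter not called under 4 of the 17 other settings.

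Of 8 peptide-trimming enzymes, 2 were called higher and 1 lower, with a median of 0.05. ERAP1 and ERAP2, the aminopeptidases that trim peptides inside the endoplasmic reticulum, both rose, from 129 ± 4.62 to 142 ± 5.03 CPM and from 151 ± 5.04 to 169 ± 3.88 CPM. BLMH, a cytosolic peptidase, fell from 122 ± 3.59 to 108 ± 6.47 CPM. The calls of ERAP1 and BLMH were each lost under 1 of the 17 other settings. Of 6 loading chaperones, 2 were called higher and 0 lower by edgeR, with a median of 0.05. At an unadjusted p under 0.05, 1 was lower, and DESeq2 called 0 lower. PDIA3, the disulfide isomerase of the loading complex, rose 1.22-fold, from 111 ± 3.64 to 136 ± 3.88 CPM. HSPA5, the general chaperone BiP, rose 1.32-fold, from 100.2 ± 4.92 to 132 ± 2.15 CPM. The others were not called: the lectin chaperones CALR, at 819 ± 7.72 and 794 ± 19.4 CPM, and CANX, at 540 ± 8.86 and 549 ± 11.1 CPM, the peptide editor TAPBPL at 27.7 ± 1.01 and 25.01 ± 1.32 CPM, and the folding sensor UGGT1 at 169 ± 4.97 and 178 ± 4.25 CPM (SD, n = 3 per group). TAPBPL, CALR and UGGT1 were called under 5, 2 and 2 of the 17 other settings. All of them were called without compound E replicate 3, at log2 fold changes of -0.19, -0.06 and 0.09.

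Of 15 factors known to act on class I promoters, 5 were called higher and 2 lower, with a median of 0.04. That is 46.7% called, near the 38.3% of all tested genes. IRF1, the interferon regulatory factor best known for class I, fell from 74.8, 71.9 and 71.6 CPM to 60.4, 57.4 and 57.7 CPM. Its groups lay well apart, with a log2 fold change of -0.32 ± 0.0425 (SE) and an adjusted p of 9.43e-08 by edgeR. USF1, an E-box factor, rose 1.23-fold and NFYA, a subunit of NF-Y, 1.17-fold. RELA, the NF-kB subunit p65, and CREB1 rose 1.09-fold and 1.08-fold, and these calls were lost under 3 and 8 of the 17 other settings. The RFX subunits through which NLRC5 reaches the promoter were not called: RFX5 had a log2 fold change of -0.01 (adjusted p = 0.908 by edgeR), RFXAP of -0.06 and RFXANK of -0.02.

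Of 13 genes that repress class I or turn its chains over, 12 were tested, of which 3 were called higher and 0 lower by edgeR, with a median of 0.08. At an unadjusted p under 0.05, 0 were lower, and DESeq2 called 0 lower. The 3 were MARCH9, a ubiquitin ligase that removes class I from the surface (log2 fold change 0.29), TMEM127 (0.21), and SYVN1, a ligase of degradation from the endoplasmic reticulum (0.19, a call lost under 1 other setting). In the receptor pathway of interferon, 7 of 13 were called higher and 3 lower, with a median of 0.14. That is 76.9% called, beside 38.3% of all tested genes, and the lower calls numbered 0 to 3 over the other settings. SOCS1 and SOCS3, feedback inhibitors of JAK kinases, rose 1.83-fold, from 6.47 ± 0.591 to 11.8 ± 1.72 CPM, and 1.56-fold, from 6.42 ± 0.916 to 10.1 ± 0.993 CPM (SD, n = 3). The kinase TYK2 rose 1.15-fold and the receptor chain IFNAR1 1.17-fold. IFNGR2, a chain of the interferon gamma receptor, fell 1.24-fold, a call lost under 2 of the 17 other settings.

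ULBP1, of the class I-like genes, had the largest log2 fold change in size among the tested genes of the 9 lists. Of 17 class I-like genes, 9 had enough counts to be tested, with 3 called higher and 2 lower and a median of 0.07. This stress ligand of the NKG2D receptor on natural killer cells had 24.0, 22.9 and 24.7 CPM with DMSO and 4.70, 6.14 and 5.84 CPM with compound E. ULBP1 was thus 4.28-fold lower (log2 fold change -2.10 ± 0.0939 (SE), adjusted p = 4.40e-21 by edgeR). ULBP2, its paralogue, was lower as well, from 2.68 ± 0.187 to 1.81 ± 0.153 CPM (adjusted p = 0.0256 by edgeR), with the call lost under 6 of 16 other settings. MICB, another NKG2D ligand, rose 1.12-fold, a call lost under 8 of the 17 settings. CD1D, which presents lipids to natural killer T cells, had 39.9, 36.3 and 38.3 CPM with DMSO and 60.2, 64.1 and 64.3 CPM with compound E. Its rise was 1.65-fold, with an adjusted p of 2.23e-15 by edgeR. MR1, which presents vitamin metabolites, rose 1.11-fold, a call lost under 9 of the 17 settings.

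Class II genes, driven by CIITA, the relative of NLRC5, were low. Of 12, 5 were tested, with 1 called higher and 1 lower and a median of -0.06. HLA-DRA, HLA-DQA1 and HLA-DQB1 had 0 counts in every library, which allows at most 0.151 to 0.173 CPM before TMM scaling, a limit of 3 counts that covers counting error only. HLA-DOA, which restrains class II loading, fell from 8.88 ± 0.272 to 5.75 ± 0.627 CPM, a log2 fold change of -0.63 (adjusted p = 3.80e-05 by edgeR). HLA-DPB1 had 5, 11 and 9 counts with DMSO and 23, 14 and 12 with compound E (adjusted p = 0.0461 by edgeR), a call lost under 12 of 16 other settings. Of 8 noncoding transcripts of the region, 4 were tested and 0 were called by edgeR, with 0 at an unadjusted p under 0.05 and 0 called by DESeq2.

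**Figure D5:**
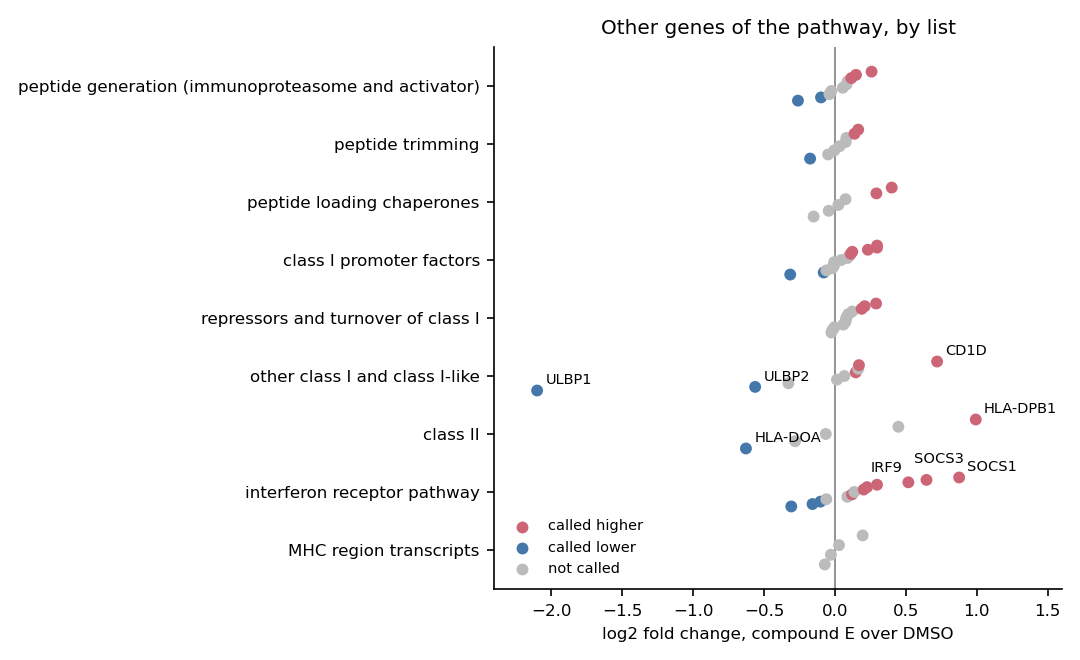
Log2 fold change of compound E over DMSO for the tested genes of 9 lists, with a point per gene, red for called higher, blue for called lower and grey for not called. Most points lie within 0.5 of 0, with ULBP1 at -2.10 farthest out.

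Position was examined, since 7 of the 9 genes lie on chromosome 6. Within 50 kb of the 9 genes lay 68 others, of which 25 were tested, 2 were called higher and 6 lower, a share of 32.0% beside 38.3% of all tested genes. The median log2 fold change of these neighbours was 0.01. HERPUD1, a stress gene of the endoplasmic reticulum near NLRC5, fell from 119 to 70.2 CPM (log2 fold change -0.76, adjusted p = 1.76e-19 by edgeR). AC012181.2, a transcript annotated within HERPUD1 on the same strand, had a log2 fold change of -0.62, a call lost under 9 of 16 other settings. It is no separate neighbour in position but is included in the 25 tested and the 6 called lower. AC012181.1, also within HERPUD1, is included in the 25 and was not called. Near TAPBP, the ribosomal protein gene RPS18 fell (-0.27), as did the chaperone subunit gene PFDN6 (-0.15, lost under 4 of 17) and ZBTB22 (-0.15, lost under 9), whereas DAXX, a histone chaperone, rose (0.11, lost under 3). Near B2M, SPG11 fell (-0.14, lost under 4) and TRIM69, a ubiquitin ligase, rose (0.25, lost under 8). PSMB8 and PSMB9, beside TAP1 and TAP2, were not called.

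As a description over 6 samples, with no test, the tested genes whose log2 CPM followed NLRC5 most closely were MAMDC4 (Pearson r = 0.997), AL442003.1 (0.990), SHC3 (0.990), PHACTR4 (0.990) and SEPT9 (0.989). Those nearest to the mean of the 9 genes were PLEKHG4B, FAM173A, TRIM66, GALNT18 and ZNF628, with r from 0.993 to 0.995. The points share treatment and library, and these genes are the nearest of 16926.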

How the data were processed

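Gene expression was measured by RNA sequencing in 3 DMSO and 3 compound E libraries of MOLT-3 cells, grouped by the titles and treatment labels. Polyadenylated RNA was captured on oligo-dT beads and libraries were built with the NEBNext Ultra kit, per the labels' protocols. The submitters' processing notes name HISAT2 2.0.5, featureCounts 1.5.0-p3 and DESeq2 1.16.1, with no role or order. The authors deposited raw counts per gene and FPKM values. The sources used here give neither the build, the annotation, the use of the strand nor the treatment of reads with several matches. All 58735 gene identifiers had the same start, end and strand in GENCODE 29, so GRCh38 coordinates are given. The FPKM deposited by the authors use the merged exon length of that annotation.

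Counts were tested in R 4.3.3 with edgeR 4.0.16: filterByExpr (16926 genes kept), TMM scaling, the quasi-likelihood F-test with treatment as the only term, and Benjamini-Hochberg adjustment over all tested genes. Standard errors are the size of the log2 fold change over the square root of F, and 95% intervals use the t distribution of that fit. The biological coefficient of variation was 2.72%. Log2 values were computed here. Ratios within libraries were compared by exact permutation tests. On simulated counts of compound E against DMSO over 16926 genes, recovery was 52% for changes of 1.2-fold, 64% for 1.5-fold, 90% for 2-fold and 100% for 4-fold, and 7.83% of calls were false. The simulation gave every gene the same dispersion and changed 200 genes, 50 per fold, drawn over all levels. These shares need not hold for the calls reported here. Pairs of replicates were compared by a chi-square of their counts and differed beyond sampling noise.

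The text names the 9 genes, up to 6 called genes of smallest p in each list, all immunoproteasome and chaperone genes, called neighbours, the most similar genes and 3 NOTCH targets. A gene taken by this rule is left in the counts of its lists and is not reported here by itself. The constitutive subunits, RFX subunits, class II genes at 0, overlapping transcripts and cell type markers were named in addition, some of them after their values were seen. The 9 genes and the lists were chosen with earlier results of these data known. Alternatives were RLE, library-size and upper-quartile scaling, filters of none or of 5 CPM (3 or more libraries), limma-voom (limma 3.58.1), DESeq2 1.42.0, limma on FPKM (log2, pseudocount 1 or 0.1, and 1 without a filter), the replicate number as a block, and each library left out. Promoters are from RefSeq, GRCh38.p14.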

Additional observations from a re-analysis of the deposited data

How the results depend on the processing

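The calls of HLA-B, HLA-E, B2M and TAP1 kept their direction and their side of the threshold under all 17 alternatives, with log2 fold changes of -0.28 to -0.23, -0.18 to -0.15, 0.11 to 0.14 and 0.31 to 0.36. HLA-C was called under none of them and ranged from -0.09 to -0.02. HLA-F was called with limma on log2(FPKM + 1) and log2(FPKM + 0.1), with adjusted p-values of 0.0307 and 0.0309, and was not tested under the filter of 5 CPM. It ranged in adjusted p from 0.0307 to 0.197 over its 16 alternatives. TAP2 had a log2 fold change of -0.068 to 0.0098 with 1 library left out, above 0 without DMSO replicate 3. PSMB9 ranged from -0.058 to 0.013, above 0 without DMSO replicate 3 (0.0036) or compound E replicate 3. Without a filter, limma on log2(FPKM + 1) called 2128 genes higher and 1874 lower, against 3206 and 3278 by edgeR, and the cause was not tested. The summed heavy chains had a log2 ratio of -0.15, and -0.17 under upper-quartile scaling, which moved the median of all genes to -0.019. Counts of calls higher and lower, lowest to highest over the settings, were 3 to 5 and 1 to 2 for peptide generation, 1 to 3 and 0 to 1 for trimming, 2 to 3 and 0 to 2 for loading chaperones, 3 to 5 and 1 to 2 for promoter factors, 5 to 7 and 0 to 3 for the interferon receptor pathway, 1 to 3 and 1 to 3 for class I-like genes, 0 to 1 and 1 to 2 for class II, and 0 to 2 and 2 to 6 for neighbours. Repressors and turnover had 3 to 4 higher and 0 lower, and transcripts of the region 0 to 1 higher, the 1 without DMSO replicate 2, and 0 lower. With the replicate number as a block (replicate block), HLA-B was at -0.26, HLA-E at -0.16, B2M at 0.13 and TAP1 at 0.33, each still called, and 3019 genes were called higher and 3119 lower. Deviations of same-numbered libraries correlated at 0.010, -0.019 and 0.00012, and not every library correlated best with its own number. These values show no sign of pairing by number, but they cannot settle whether same-numbered libraries were handled together. Depth limits HLA-F, with 18 to 32 counts per library.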
